A study of Homo sapiens with 12 samples.

Results

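The genes described here encode the proteins of small nuclear ribonucleoproteins (snRNPs), the LSm proteins related to them, and the SMN complex that assembles them. They were chosen by symbol from the 25369 genes counted in each sample, as those beginning with SNRP, SNRNP, LSM plus a digit, PRPF or GEMIN, together with SMN1, SMN2 and SMNDC1. The 2 pseudogenes GEMIN8P4 and SNRPD2P2 were left out, which gave 54 genes. Of these, 51 had enough reads to be tested, among 16625 tested genes in all. SMN1, SMN2 and SNRPN did not pass the filter on low counts.

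A snRNP is a short nuclear RNA held in a ring of Sm proteins, to which proteins particular to U1, U2, U4, U5 or U6 are added, and together these particles form the spliceosome, which removes introns from pre-mRNA. The SMN complex loads the Sm ring onto the RNA in the cytoplasm, after some Sm proteins have been methylated on arginine by PRMT5. LSm proteins form similar rings, one on U6 in the nucleus and another on mRNA that is being decapped in the cytoplasm. A mixed Sm and LSm ring forms on U7, which takes part in cutting the ends of replication-dependent histone mRNAs.

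Polyadenylated RNA was sequenced from Tet-On U2OS cells, a human osteosarcoma line in which doxycycline switches on a gene placed behind the Tet-responsive promoter. The 4 lines carried the empty vector (pTRE), HA-tagged wild-type E2F1 (WT), HA-tagged E2F1 with the R109K change, which removes the arginine methylated by PRMT1, or HA-tagged E2F1 with the R111/113K change, which removes the arginines methylated by PRMT5 (KK). E2F1 is a transcription factor of the cell cycle. Every line, pTRE included, received 1 µg/ml doxycycline for 24 h and was kept under G418 and hygromycin B, and each line gave 3 biological replicates. Each construct was studied in 1 stable line, so that the construct and other differences between the lines cannot be told apart. Whether a line was 1 clone or a pool was not given in the sources used here.

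Reads on genes numbered 21366887 to 31040903 in 11 samples and 11500537 in WT replicate 2, where 31.2% of reads fell on genes against 59.0% to 65.7% elsewhere. E2F1, counted from the endogenous gene and the construct together, was higher than in pTRE by 4.31 (SE 0.20) on the log2 scale in WT, 3.85 (SE 0.20) in KK and 3.67 (SE 0.20) in R109K, and none of the E2F1 line samples overlapped the pTRE samples. Of 8 osteoblast lineage markers, 4 had a median over 1 CPM (reads scaled to the library size), with COL1A1 and SPARC high, while SP7, IBSP, BGLAP and COL1A2 were near 0. The summed level of these 8 markers was 4683 to 5886 CPM in pTRE and 1022 to 1742 CPM in the E2F1 lines. Of 5 epithelial markers 4 had a median over 1 CPM, CDH1 only just, and their sum was 744 to 919 CPM in pTRE and 365 to 659 CPM in the E2F1 lines. The summed leukocyte, endothelial and hepatocyte markers stayed under 3 CPM in every sample. Whether these marker differences between pTRE and the E2F1 lines play a part in the changes below was not tested.

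Few of these genes changed with E2F1, and each that was called was higher. In WT against pTRE, 3 of the 51 genes rose at an adjusted p under 0.01, namely LSM11, LSM5 and PRPF3, beside 14.8% of all genes tested, and 0 fell, beside 11.4%. In KK, LSM11, LSM5 and PRPF3 rose again, 3 of 51 beside 13.8% of all genes, and 0 fell, beside 10.7%. In R109K, LSM11 and LSM5 rose, 2 of 51 beside 10% of all genes, and 0 fell, beside 7.23%. Only LSM11 also changed by more than 2-fold, in WT and KK but not in R109K, while 11.8% of all genes did so in WT, 10.9% in KK and 7.19% in R109K. The 3 comparisons share the pTRE samples. At an unadjusted p under 0.05 the counts were 12, 14 and 15 of the 51 genes in WT, KK and R109K, against 49%, 45.6% and 38.6% of all genes. The shares called higher among genes with a mean of at least 10 CPM were 16%, 15.1% and 11.2% in the WT, KK and R109K lines. All 3 samples of the line lay above all pTRE samples for 5, 11 and 17 of the 51 genes in WT, KK and R109K. Among all genes tested this held for 25.2%, 24.9% and 24.3%. The samples lay below all pTRE samples for 13, 3 and 5 of the 51, beside 26.3%, 24.5% and 22.9% of all genes. In this bulk RNA, a change in every cell and a change in the share of cells that carry a transcript cannot be told apart.

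The changes that were not called were mostly small. The 95% interval of the log2 fold change lay wholly within 2-fold for 48 of the 51 genes in WT, 50 in KK and 49 in R109K, which was 94.1%, 98% and 96.1% of them. Among all genes tested the same was true of 61.4%, 63.7% and 68.2%, and among the 10468 with a mean of at least 10 CPM, of 79.8%, 82.6% and 87.3%. These genes are well covered, with a median of 78.6 CPM against 21.4 CPM for all genes tested, and 50 of the 51 had at least 10 CPM. Their median standard error was 0.149, 0.149 and 0.148 in WT, KK and R109K. Among the genes with a mean of at least 10 CPM it was no larger, at 0.140, 0.139 and 0.139. The genes took between 0.476% and 0.586% of the gene reads of a sample. The median log2 fold change of the 51 genes was -0.10 in WT, 0.11 in KK and 0.14 in R109K, while that of all genes was within 0.01 of 0.

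**Figure D1:**
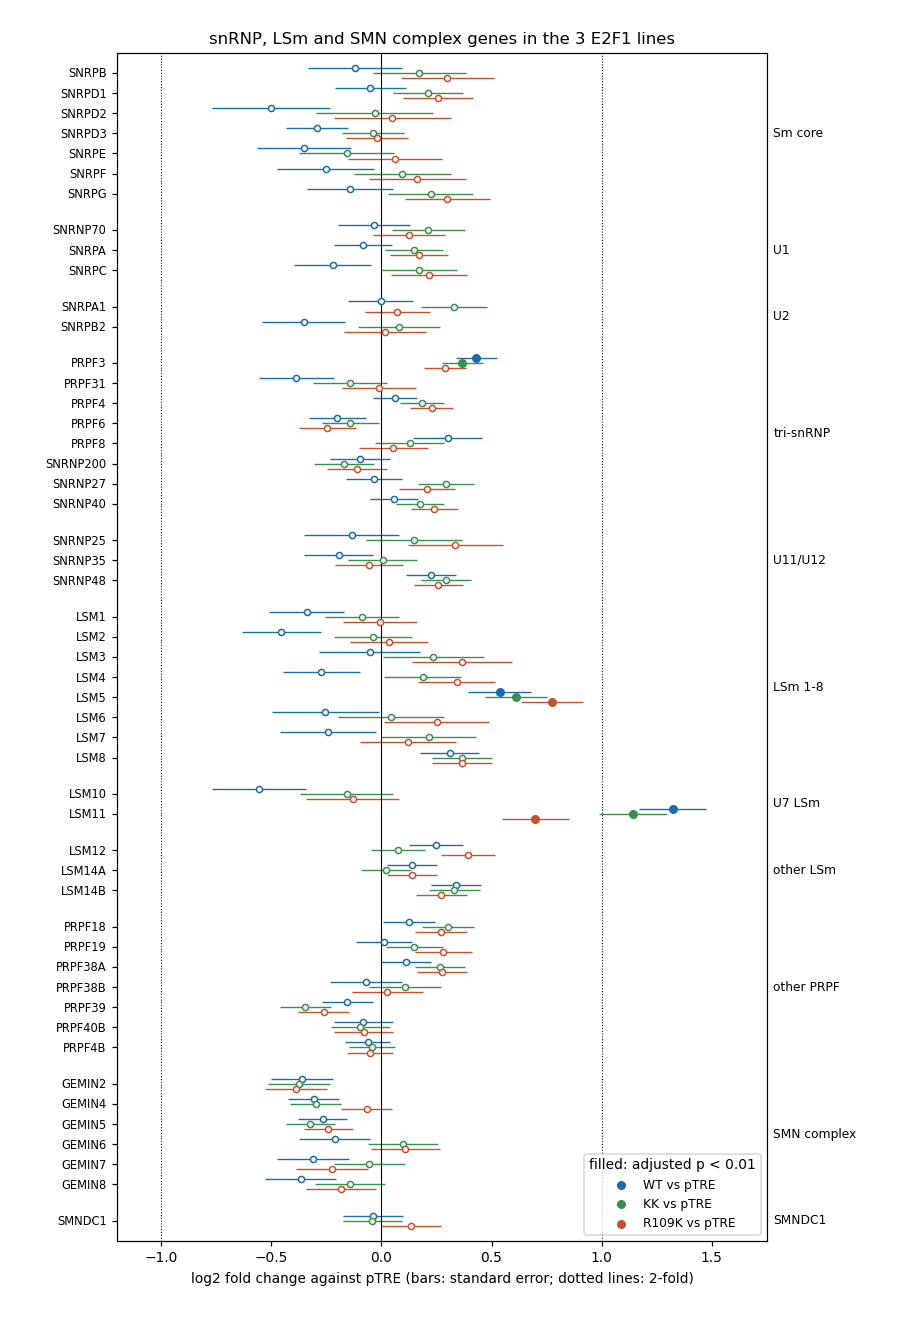
Log2 fold change against pTRE of 50 of the 51 tested genes (x axis), grouped by the particle they belong to, in WT, KK and R109K (3 replicates per line); bars are standard errors and filled points have an adjusted p under 0.01. LSM11 lies apart on the right at 1.32 in WT and 1.14 in KK and at 0.70 in R109K, where LSM5 is further right at 0.77. LSM5 and PRPF3 are the other filled genes, and every other point lies between -0.56 and 0.39.

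**Figure D2:**
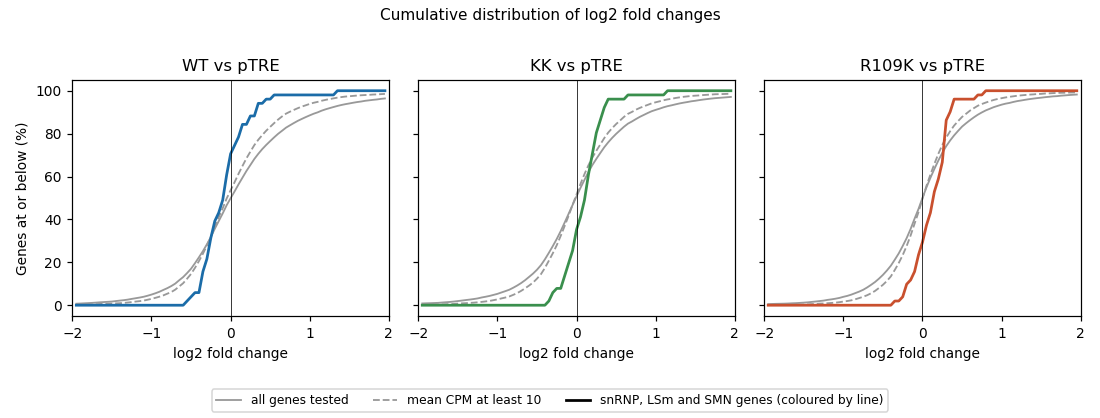
Percentage of genes (y axis) at or below each log2 fold change against pTRE (x axis), for the 51 tested genes, all 16625 genes tested and the 10468 genes with a mean of at least 10 CPM. The curve of the 51 genes is steeper than both others in all 3 comparisons and crosses 50% at -0.10 in WT, 0.11 in KK and 0.14 in R109K.

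The largest change in WT and KK was that of a U7 protein. LSM11 and LSM10 replace 2 of the Sm proteins in the ring of the U7 snRNP, and LSM11 also recruits the factors that cleave histone pre-mRNA. LSM11 (GRCh37 chr5:157170720-157187717, plus strand, 4 exons) had 6.44, 7.56 and 7.49 CPM in the 3 pTRE samples, 18, 20.9 and 15.3 CPM in WT, 17.7, 13.8 and 15.9 CPM in KK, and 12.4, 10.2 and 12.3 CPM in R109K. All 9 E2F1 samples lay above all 3 pTRE samples, and the R109K samples lay below every WT and KK sample. The log2 fold change was 1.32 (SE 0.15, adjusted p = 8.62e-06) in WT, 1.14 (SE 0.15, adjusted p = 3.44e-05) in KK and 0.70 (SE 0.15, adjusted p = 0.00293) in R109K. In WT the 95% interval ran from 1.00 to 1.65 and in KK from 0.82 to 1.47, so that a 2-fold change lay within the KK interval and at the lower edge of that of WT. Tested against 2-fold itself, neither change passed, with adjusted p = 0.101 in WT and 0.687 in KK. The R109K call was lost without pTRE replicate 1 (adjusted p = 0.0179), R109K replicate 1 (0.0160) or R109K replicate 3 (0.0136).

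LSM10 was not called in any line. It had 20.9, 23.6 and 24.1 CPM in pTRE, 17.3, 11.2 and 17.7 CPM in WT, 16, 28.3 and 17.4 CPM in KK, and 17.5, 24.9 and 20.3 CPM in R109K. The WT samples were all below the pTRE samples, and the KK and R109K samples spanned them. Its log2 fold changes were -0.56 (SE 0.21, adjusted p = 0.0510), -0.16 (SE 0.21) and -0.13 (SE 0.21) in WT, KK and R109K. Per length of transcript, LSM11 was the lowest of the 51 tested genes in pTRE at 1.09 ± 0.10 RPKM (CPM divided by transcript length in kilobases, SD, n = 3), against 26.6 ± 2.0 RPKM for LSM10.

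Some other factors of histone mRNA synthesis and 3′ end processing also rose. Of a list of 7, 3 passed the test in WT and in KK and 2 in R109K, with 0 lower, where 14.8%, 13.8% and 10% of all genes were called higher. The list was chosen with earlier results of these data known. SLBP, which binds the histone mRNA stem-loop, rose by 0.94 (SE 0.12), 0.97 (SE 0.12) and 0.94 (SE 0.12) on the log2 scale in WT, KK and R109K. NPAT, a coactivator of histone gene transcription, rose by 1.27 (SE 0.19), 0.92 (SE 0.19) and 0.94 (SE 0.19), which was over 2-fold in WT. ZNF473, a zinc-finger protein of the U7 machinery, rose by 0.71 (SE 0.13) in WT and 0.65 (SE 0.13) in KK. Over the whole list, the median was 0.19, 0.04 and 0.13 in the 3 lines on that scale.

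**Figure D3:**
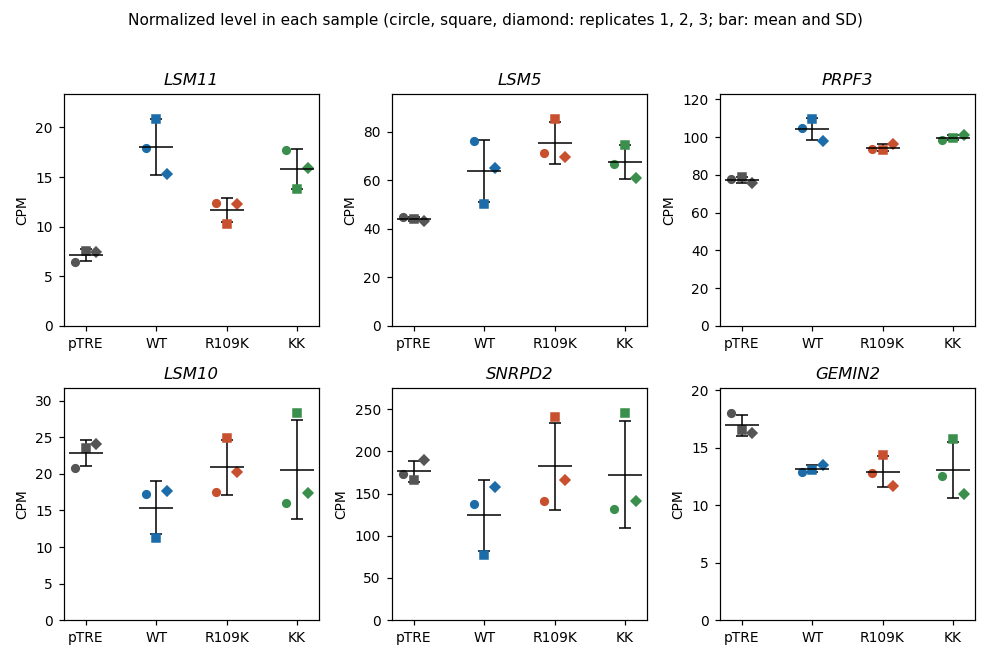
Level in CPM (y axis, from 0) of 6 genes in each of the 12 samples; symbols are the 3 replicates of each line, bars the mean and SD. LSM11 is between 10.2 and 20.9 CPM in the E2F1 lines and under 7.6 CPM in pTRE, LSM5 and PRPF3 are shifted without overlap, and the replicates of SNRPD2 and LSM10 spread far more in the E2F1 lines than in pTRE.

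The sequence just upstream of LSM11 is shown because it is the only one of these genes beyond 2-fold. The 250 bases before its RefSeq start (GRCh38.p14, chr5:157743462-157743711, plus strand) are printed with each CG pair in capitals.
LSM11: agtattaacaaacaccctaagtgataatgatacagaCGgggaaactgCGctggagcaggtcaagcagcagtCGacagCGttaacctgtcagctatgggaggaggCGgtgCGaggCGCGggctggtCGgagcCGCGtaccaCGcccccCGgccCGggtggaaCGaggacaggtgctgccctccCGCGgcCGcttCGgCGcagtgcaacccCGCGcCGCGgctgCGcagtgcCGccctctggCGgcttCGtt
The stretch holds 28 CG pairs and 66.4% G or C, where the median over the 35116 RefSeq promoters in the table was 11 pairs, and 84.1% of them had fewer. E2F proteins bind sites of the kind TTT, then 2 bases that are each C or G, then CGC. From 250 bases before the start to 50 after it, neither strand of LSM11 holds these letters, and its closest match has 1 mismatch. The study used a wider window, from 900 bases before the start to 100 after it, which was not searched here. A match with at most 1 mismatch occurs in 30 of the 43 genes here that have a promoter in the table, counted by gene. It occurs in 48.8% of all promoters, counted singly. Some genes have more than 1 promoter in the table, which holds 27305 gene symbols, so these shares cannot be compared directly.

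Of those 43 genes, 3 hold the E2F letters in the narrower window searched here, which is 6.98% beside 3.99% of all gene symbols in the table. Each is shown with 10 bases on either side, on its own transcribed strand, with the 8 matching letters in capitals (here the reverse complement of the site as spelled above).
LSM3: ctcgcgagagGCGGGAAAgggcgcaggg
SNRPB: ggtagcggcgGCGGGAAAtcggctgtgg
SNRPN: cccctgcactGCGGCAAAcaagcacgcc
The match begins 19 bases into the transcript in LSM3 (GRCh38.p14 chr3:14178825-14178852) and in SNRPB (chr20:2470754-2470781), and 99 bases before the start in SNRPN (chr15:24954878-24954905). LSM3 and SNRPB were not called in any line, with log2 fold changes of -0.05 and -0.12 in WT, 0.24 and 0.17 in KK, and 0.37 and 0.30 in R109K. Genes without a promoter in the table included LSM1, LSM6, LSM14A, PRPF3, PRPF39, PRPF4B, SMN1, SMN2, SNRNP35 and SNRPD1.

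LSM5 was called in all 3 lines. It belongs to both LSm rings, that of U6 and that of mRNA decapping. LSM5 (GRCh37 chr7:32524950-32534895, minus strand, 5 exons) had 44.9, 44 and 43.2 CPM in pTRE, 76, 50.4 and 64.9 CPM in WT, 66.8, 74.6 and 60.7 CPM in KK, and 71.1, 85.3 and 69.6 CPM in R109K. Each E2F1 sample exceeded each pTRE sample, with WT replicate 2 the lowest of them. The log2 fold change was 0.54 (SE 0.14, adjusted p = 0.00739) in WT, 0.61 (SE 0.14, adjusted p = 0.00325) in KK and 0.77 (SE 0.14, adjusted p = 0.000794) in R109K. The WT call was lost without any 1 of the pTRE samples (highest adjusted p = 0.0297), without WT replicate 1 (0.0555) or without WT replicate 3 (0.0238). The KK call was likewise lost without any 1 of the pTRE samples (highest 0.0156), KK replicate 1 (0.0114) or KK replicate 2 (0.0136).

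The other 7 members of the LSm 1 to 8 rings were not called in any line. LSM8, which marks the nuclear ring on U6, had log2 fold changes of 0.31 (SE 0.14), 0.37 (SE 0.14) and 0.36 (SE 0.14) in WT, KK and R109K, with adjusted p = 0.0823, 0.0459 and 0.0569. LSM1, which marks the cytoplasmic ring, had -0.34 (SE 0.17), -0.09 (SE 0.17) and -0.01 (SE 0.17). LSM2, LSM3, LSM4, LSM6 and LSM7 ranged from -0.46 to -0.05 in WT and from 0.04 to 0.37 in R109K. Single libraries moved these values. The median of the LSm 1 to 8 genes went from -0.25 to -0.05 in WT without WT replicate 2. It went from 0.20 to -0.07 in KK without KK replicate 2, and from 0.30 to 0.09 in R109K without R109K replicate 2. Of 8 decapping factors that work with the cytoplasmic ring, EDC4, a scaffold of the decapping complex, rose by 0.51 (SE 0.12) in WT and 0.55 (SE 0.12) in KK, and DCP1B, a decapping cofactor, fell by 0.62 (SE 0.14) and 0.63 (SE 0.14). None of the 8 was called in R109K, nor any of 4 U6 processing factors in any line.

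PRPF3 was the only called gene of the U4/U6.U5 tri-snRNP group of 8. It is a U4/U6 protein, and PRPF3 (GRCh37 chr1:150293928-150325709, plus strand, 16 exons) had 77.7, 78.6 and 75.5 CPM in pTRE, 105, 110 and 98 CPM in WT, 98.6, 99.3 and 101 CPM in KK, and 93.4, 93.2 and 96.5 CPM in R109K. The lines did not overlap pTRE, and the spread within each line was small beside the shift. The log2 fold change was 0.43 (SE 0.09, adjusted p = 0.00212) in WT, 0.37 (SE 0.09, adjusted p = 0.00640) in KK and 0.29 (SE 0.09, adjusted p = 0.0318) in R109K, the last not called. The KK call was lost when any 1 sample of the comparison was left out, with adjusted p from 0.0114 to 0.0275, and the WT call was kept throughout.

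Around PRPF3, the other tri-snRNP proteins of that group were not called in any line. Its partner PRPF4 had log2 fold changes of 0.06 (SE 0.10), 0.18 (SE 0.10) and 0.23 (SE 0.10) in WT, KK and R109K, and PRPF31, another U4 protein, had -0.39 (SE 0.17), -0.14 (SE 0.17) and -0.01 (SE 0.17). PRPF8, at the heart of the spliceosome, had 0.30 (SE 0.16), 0.13 (SE 0.16) and 0.05 (SE 0.16). SNRNP200, the helicase that unwinds U4 from U6, had the highest mean of all 51 genes at 591 CPM and log2 fold changes of -0.10, -0.17 and -0.11. Of 8 further tri-snRNP proteins only USP39 was called, and it rose in all 3 lines, by 0.52 (SE 0.11), 0.50 (SE 0.11) and 0.57 (SE 0.11).

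None of the 7 Sm ring genes was called in any line. Per length, SNRPD2 was the most abundant of the 54 genes in pTRE, at 342 ± 23.4 RPKM (SD, n = 3), followed by SNRPB at 218 ± 8.6 RPKM and SNRPG at 166 ± 2.6 RPKM. The order in which genes fall per length depends on the transcript used, here the canonical one of GENCODE 44. Log2 fold changes of the 7 genes ranged from -0.50 (SNRPD2) to -0.05 (SNRPD1) in WT, from -0.16 (SNRPE) to 0.22 (SNRPG) in KK, and from -0.02 (SNRPD3) to 0.30 (SNRPG) in R109K. SNRPB, SNRPD1 and SNRPF had -0.12, -0.05 and -0.25 in WT. Their standard errors, 0.14 to 0.27, were of the size of the changes.

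Single libraries moved the medians of the Sm ring. SNRPD2 had 173, 166 and 189 CPM in pTRE, 137, 76.9 and 158 CPM in WT, 131, 245 and 141 CPM in KK, and 141, 240 and 166 CPM in R109K. WT replicate 2 was far below its line, and KK replicate 2 and R109K replicate 2 were far above theirs. The median of the 7 Sm genes, relative to the pTRE mean, was -0.76 on the log2 scale in WT replicate 2 but -0.09 and 0.03 in the other WT samples. It was 0.48 in KK replicate 2 against -0.18 and -0.10, and 0.45 in R109K replicate 2 against -0.11 and 0.02. Without WT replicate 2 the median fold change of the Sm ring in WT went from -0.25 to -0.03. Without KK replicate 2 that in KK went from 0.10 to -0.15, and without R109K replicate 2 that in R109K went from 0.16 to -0.01.

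The same libraries stood apart over the whole set. Against the other replicates of its line, WT replicate 2 was lower in 45 of the 51 genes (88.2%), with a median difference of -0.34 on the log2 scale. Over all genes tested it was lower in 51.8%, with a median of -0.02. Among those with a mean of at least 10 CPM it was lower in 62.4%, with a median of -0.11. KK replicate 2 was lower in 12 of the 51 genes, with a median difference of 0.42, and R109K replicate 2 in 10, with 0.22. The medians over all genes tested were -0.027 in KK replicate 2 and -0.0035 in R109K replicate 2. WT replicate 2 is also the library with 31.2% of reads on genes, and KK replicate 2 and R109K replicate 2 lay within the range of the other samples in that respect. Without WT replicate 2, LSM14B was called in WT besides the genes LSM11, LSM5 and PRPF3, which made 4 higher genes. Of all genes tested, 14.1% were higher there. Without KK replicate 2 the only gene called higher in KK was LSM11, where 12.9% of all genes tested were higher. LSM11 was also the only gene called higher in KK without KK replicate 1 or without any 1 of the pTRE samples. The median of the 51 genes went from -0.10 to -0.01 in WT, from 0.11 to -0.04 in KK and from 0.14 to 0.04 in R109K without the replicate 2 library of that line. The part of these libraries' other properties in the shifts was not tested.

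**Figure D4:**
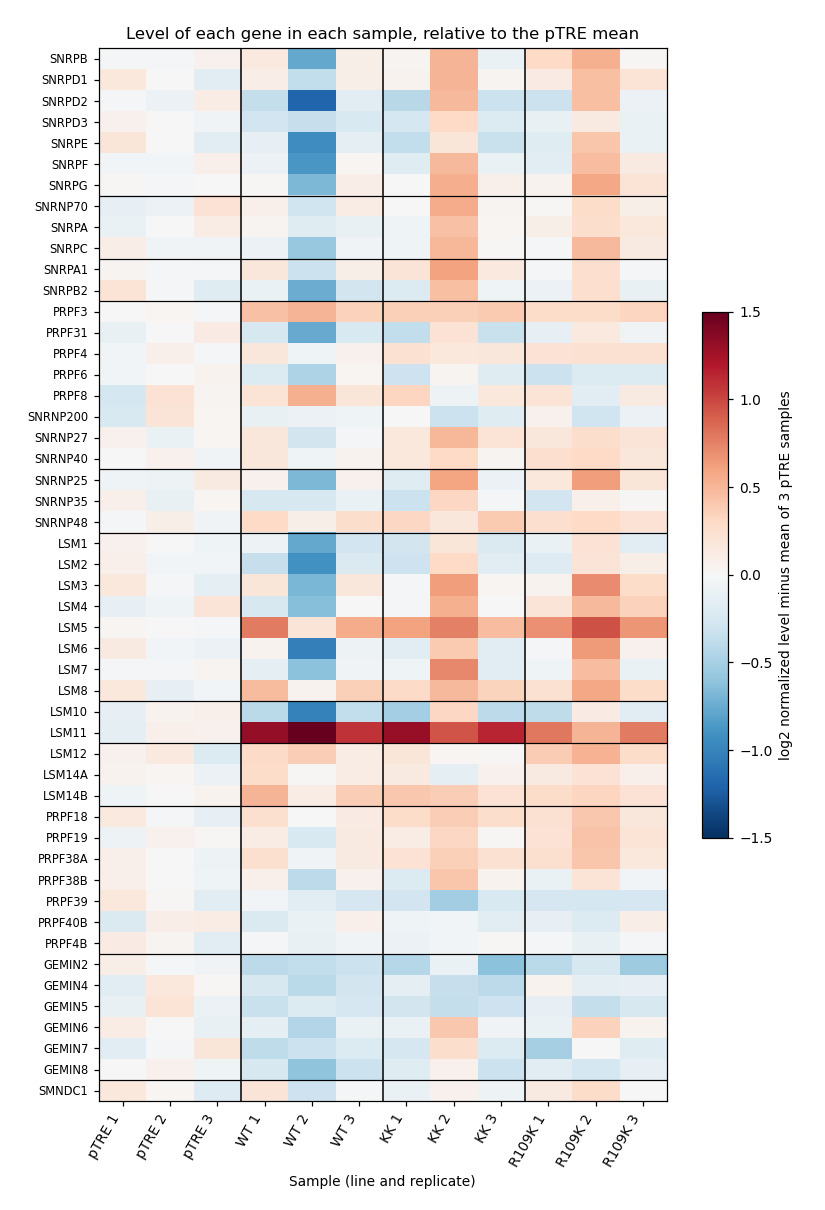
Log2 normalized level of 50 of the 51 tested genes (rows, by particle) in each of the 12 samples (columns), minus the mean of the 3 pTRE samples; the colour scale ends at 1.5 either way. LSM11, LSM5 and PRPF3 are raised in all 9 E2F1 samples, while most Sm, U1 and LSm 1 to 8 rows, other than LSM5 and LSM8, are low in WT replicate 2, and most are high in KK replicate 2 and R109K replicate 2.

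**Figure D5:**
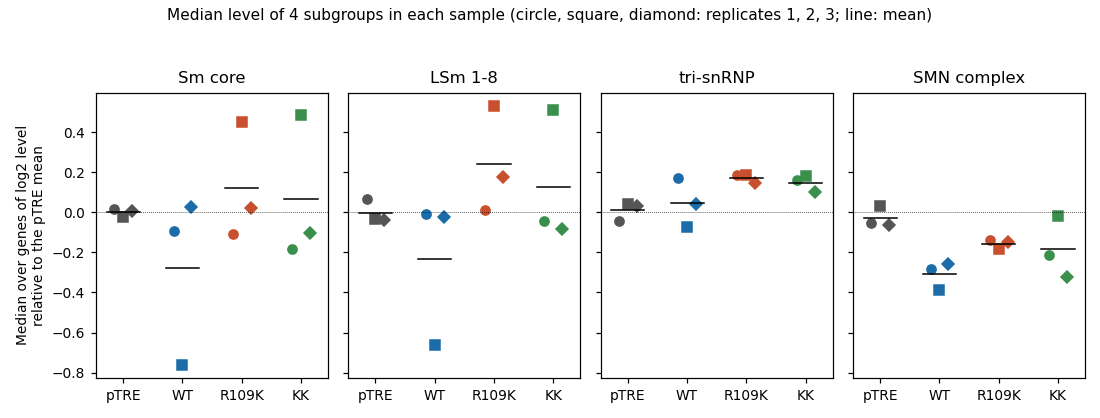
Median log2 level relative to the pTRE mean (y axis) of 4 groups of genes in each sample; symbols are the 3 replicates and lines their mean. The Sm core and LSm 1 to 8 groups differ more between replicates (-0.76 to 0.53) than the tri-snRNP and SMN complex groups (-0.39 to 0.19).

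SNRPN, a close relative of SNRPB that is best known from neurons and is imprinted, was listed with 3 reads in pTRE replicate 1 and 0 in the other 11 samples. On GRCh37 78.1% of its exon bases lie on the same strand as exons of SNURF or other annotated genes, and such reads are not assigned to a single gene by counters that leave out ambiguous reads. Reads in the ambiguous class were 0.866% to 2.16% of each sample. The annotation used for the counting was not given in the sources used here. Whether the overlap with SNURF or other genes accounts for the low count was not tested. The listed count is therefore not taken as a measure of SNRPN expression.

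Proteins specific to U1, U2 and the minor U11/U12 particle gave no call in any line. The U1 proteins SNRNP70, SNRPA and SNRPC had log2 fold changes of -0.03, -0.08 and -0.22 in WT, 0.21, 0.15 and 0.17 in KK, and 0.12, 0.17 and 0.22 in R109K. The U2 protein SNRPA1 had 0.00 (SE 0.15), 0.33 (SE 0.15) and 0.07 (SE 0.15) in WT, KK and R109K, and its partner SNRPB2 had -0.35 (SE 0.19), 0.08 (SE 0.19) and 0.02 (SE 0.19). Among the minor spliceosome proteins, SNRNP48 had 0.23 (SE 0.11), 0.29 (SE 0.11) and 0.26 (SE 0.11), above pTRE in all 9 samples but with adjusted p = 0.124, 0.0531 and 0.102. Its WT replicate 2, at 18.4 CPM, only just exceeded pTRE replicate 2, at 18.3 CPM. Of 10 SF3A and SF3B proteins, which bind U2 to the branch site, SF3B2 rose by 0.52 (SE 0.12) in KK, the only call in that list. None of 5 other U11/U12 proteins was called.

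No gene of the SMN complex was called at an adjusted p under 0.01. All 6 tested GEMIN genes had negative log2 fold changes in WT, 5 of 6 in KK and 5 of 6 in R109K, with medians of -0.31, -0.22 and -0.20. Negative values were also common elsewhere in the set in WT, in 36 of the 51 genes, but less so in KK, in 18, and R109K, in 15. Positive values made up 50.1%, 49.2% and 49.9% of all genes tested in WT, KK and R109K. The median stayed negative whichever sample was left out, from -0.36 to -0.28 in WT, -0.27 to -0.16 in KK and -0.24 to -0.14 in R109K. GEMIN2, which holds the Sm proteins during assembly, had 18, 16.5 and 16.2 CPM in pTRE, 12.9, 13.1 and 13.5 CPM in WT, 12.6, 15.7 and 11 CPM in KK, and 12.8, 14.3 and 11.6 CPM in R109K. All 9 E2F1 samples were below the lowest pTRE sample, with KK replicate 2 closest to it. The log2 fold changes were -0.36 (SE 0.14), -0.37 (SE 0.14) and -0.39 (SE 0.14), with adjusted p = 0.0534, 0.0494 and 0.0499. Without KK replicate 2, GEMIN2 was called lower in KK, where 9.01% of all genes tested were lower.

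GEMIN5, which recognizes the small nuclear RNA, had log2 fold changes of -0.27 (SE 0.11), -0.32 (SE 0.11) and -0.24 (SE 0.11) in WT, KK and R109K, again with all E2F1 samples below pTRE. The margin was slight, with 76.6 CPM in R109K replicate 1 against 76.9 CPM in pTRE replicate 1. GEMIN4 had -0.31 (SE 0.12), -0.30 (SE 0.12) and -0.07 (SE 0.12). GEMIN6 had -0.21, 0.10 and 0.11, and GEMIN8, the lowest tested gene by mean CPM at 5.34, had -0.37, -0.14 and -0.18. Its pseudogene GEMIN8P4, which is not among the 51, was called lower in WT at -0.90 (adjusted p = 0.00865), and how reads were divided between the pair was not tested. For GEMIN7, 85.4% of exon bases overlap an antisense gene on the opposite strand, and the strand setting of the counting was not given in the sources used here, so its values of -0.31, -0.05 and -0.22 are uncertain. Opposite-strand overlaps of 18.5% to 54.2% of exon bases also touch PRPF39, PRPF31, LSM1 and PRPF40B, and LSM11, LSM5 and PRPF3 have none. Besides SNRPN, same-strand overlaps of 11.7% to 16.6% touch GEMIN7, SNRPB, SNRPD3 and SNRNP27, and their effect on the counts was not tested.

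SMN1 and SMN2 were listed at 0 in all 12 samples. Their canonical transcripts, 1482 bases each, differ at 2 bases, an identity of 99.9%, and reads that align to more than 1 place were not counted. Those made up 8.59% to 9.60% of the reads of a sample. SMN1 lies at GRCh37 chr5:70220857-70249769 and SMN2 at chr5:69345465-69374349, and no level can be given for either. SMNDC1, an SMN-related splicing factor, had log2 fold changes of -0.04, -0.04 and 0.14, none called. Among 8 partners of the SMN complex and enzymes of Sm methylation, PRMT5 fell by 0.44 (SE 0.12, adjusted p = 0.00958) in KK and by 0.47 (SE 0.12, adjusted p = 0.00803) in R109K, and 0 of the 8 were called in WT. PRMT5 in WT was at -0.38 (SE 0.12, adjusted p = 0.0202), and it was not called in a direct comparison with WT, at -0.06 in KK and -0.09 in R109K.

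The journey of the small nuclear RNA itself gave few calls as well. Of 11 capping, export, import and Cajal body factors, TOE1, a nuclease that trims small nuclear RNA ends, rose by 0.47 (SE 0.12) in WT, 0.63 (SE 0.12) in KK and 0.67 (SE 0.12) in R109K. COIL, the scaffold of the Cajal body, rose by 0.44 (SE 0.11) in R109K. Over all 73 tested genes of the lists that surround these particles, 6 rose and 1 fell in WT, 7 rose and 2 fell in KK, and 5 rose and 1 fell in R109K. Of all genes tested, 14.8%, 13.8% and 10% rose and 11.4%, 10.7% and 7.23% fell in these comparisons.

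The remaining PRPF and LSm genes were not called in any line. LSM14B, a relative of the P-body protein LSM14A, had log2 fold changes of 0.34 (SE 0.12), 0.33 (SE 0.12) and 0.27 (SE 0.12) in WT, KK and R109K, above pTRE in all 9 samples, with adjusted p = 0.0294, 0.0347 and 0.0936. LSM12 had 0.25, 0.07 and 0.39 and LSM14A 0.14, 0.02 and 0.14. PRPF19, the ubiquitin ligase of the spliceosome, had 0.01 (SE 0.13), 0.15 (SE 0.13) and 0.28 (SE 0.13), and none of 12 other members of its complex was called. PRPF39, a U1-associated protein, had -0.16 (SE 0.12), -0.35 (SE 0.12) and -0.26 (SE 0.12), with KK and R109K samples all below pTRE. PRPF18, PRPF38A, PRPF38B, PRPF40B and PRPF4B lay between -0.10 and 0.30 in all 3 lines.

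Direct comparison of the E2F1 lines asked whether the methylation-site changes alter these genes relative to WT. In R109K against WT 0 of 51 genes were called by edgeR, beside 0.71% of all genes, in KK against WT 0 of 51, beside 0.012%, and in R109K against KK 0 of 51, beside 0.132%. At an unadjusted p under 0.05 the counts were 7, 6 and 2, or 13.7%, 11.8% and 3.92% of the 51 genes, against 22.3%, 8.51% and 12.4% of all genes tested. DESeq2 called LSM11 lower in R109K than in WT, and no gene in the other direct comparisons. LSM11 differed by -0.62 (SE 0.15, 95% interval -0.94 to -0.31, adjusted p = 0.0335 by edgeR and 0.00507 by DESeq2), and its 3 R109K samples lay below all 3 WT samples. E2F1 itself differed by -0.65 (SE 0.18, adjusted p = 0.0577) in the same direction, and its part in the LSM11 difference was not tested.

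LSM11 differed by -0.44 (SE 0.15, adjusted p = 0.184) in R109K against KK and by -0.18 (SE 0.15, 95% interval -0.50 to 0.13) in KK against WT. The next smallest p-values in R109K against WT belonged to the ring proteins LSM4, at 0.61 (SE 0.18, adjusted p = 0.0657), and LSM2, at 0.49 (SE 0.18, adjusted p = 0.136). LSM4 had 61.2, 46.5 and 72.6 CPM in WT and 83.1, 102 and 92 CPM in R109K, without overlap and with WT replicate 2 the lowest. In KK against WT the smallest p-values were those of LSM4 (0.46, SE 0.18), SNRNP27, a tri-snRNP protein (0.33, SE 0.13), and LSM2 (0.42, SE 0.18), each with adjusted p = 0.574. The median of the 51 genes was 0.19 there and went to 0.05 without KK replicate 2. In R109K against KK, LSM12 (0.32, SE 0.12, adjusted p = 0.263) and GEMIN4 (0.23, SE 0.12, adjusted p = 0.444) followed LSM11, and the 95% interval lay within 2-fold for all 51 tested genes and within 1.5-fold for 45 of them.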

How the data were processed

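The authors trimmed reads with Trim Galore 0.4.3, aligned them to hg19 with STAR 2.5.1 and deposited raw counts of reads per gene symbol, with 5 summary lines for reads not counted. The annotation and the strand setting of the counting were not given in the sources used here. The libraries were directional and made from poly(A) RNA. The quasi-likelihood test of edgeR 4.0.16 (R 4.3.3) was applied to the 12 samples together, after filterByExpr and TMM scaling, with the 4 lines as groups. The 6 comparisons were adjusted by Benjamini-Hochberg over 16625 genes. A gene was called at an adjusted p under 0.01, and regulated if it also changed by over 2-fold, as in the study's methods. CPM use TMM library sizes, and log2 levels of samples a prior count of 2. Library preparation was not labelled by batch.

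The members, the subgroups and the lists around them were chosen with earlier results of these data known, and the lists support nothing independently. SNRNP symbols end in P plus digits, but were kept because they are genes, not pseudogenes. Named are members over 2-fold, the 8 largest called rises and falls in each comparison with pTRE, the members with the smallest p in each direct comparison, the Sm ring genes, SNRPN, SMN1 and SMN2, and the most abundant member per length. Other members named were chosen after their values were seen, to describe their subgroup. The values of 1 member are not reported here, though it is included in the counts and medians. Gene positions, overlaps and canonical transcript lengths came from GENCODE 44 on GRCh37, and promoters from RefSeq on GRCh38.p14, with 43 of 54 members matched by symbol.

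With 11500537 to 31040903 reads on genes per sample, edgeR estimated a common dispersion of 0.0239. No 2 replicates of a line agreed within sampling noise. The script was tested on simulated data. Alternatives were DESeq2 1.42.0, RLE scaling, no filter or at least 10 counts in every sample, fits to the 6 samples of a comparison, a replicate block, glmTreat against 2-fold, an adjusted p under 0.05, leaving out each sample, and leaving out the SNRNP genes.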

Additional observations from a re-analysis of the deposited data

Results flagged for a closer look

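LSM11 stood out because its change differed between lines in a direct test. In R109K against WT its log2 fold change was -0.62 (SE 0.15, adjusted p = 0.0335), which passed an adjusted p of 0.05 but not 0.01, and all 3 R109K samples lay below all 3 WT samples. With 1 sample left out, the adjusted p ranged from 0.0140 to 0.170, highest without R109K replicate 2.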

How the results depend on the processing

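LSM11 kept its direction in every comparison with pTRE and under every alternative, and its calls in WT and KK under all but the test against 2-fold. With glmTreat against 2-fold, 0 genes were regulated in WT and 0 in KK. At an adjusted p under 0.05, LSM11, LSM14B, LSM5 and PRPF3 were higher and GEMIN4 lower in WT. Of all genes tested, 21.4% were higher and 18.7% lower there. In KK 5 were higher and 3 lower, beside 19.4% and 17.3% of all genes. In R109K 4 were higher and 1 lower, beside 15.3% and 12.9%. LSM11 was lower in R109K against WT at that threshold, and DESeq2 also called it. DESeq2 further called PRPF3 in R109K (adjusted p = 0.000965). With 1 sample left out, the called genes numbered 2 to 4 higher in WT, 1 to 2 higher and 0 to 1 lower in KK, and 1 to 2 higher in R109K. Without WT replicate 2, 14.1% of all genes were higher and 10.1% lower in WT. Without KK replicate 2 these shares in KK were 12.9% and 9.01%. Without R109K replicate 2 those in R109K were 7.96% and 4.49%. The shares without the other samples are not given here. The LSM5 call in WT was lost in the fit to 6 samples (adjusted p = 0.0141), and the PRPF3 call in KK was lost in that fit (0.0163) and with no filter on low counts (0.0249). RLE scaling, at least 10 counts in every sample and leaving out the SNRNP genes changed no call.

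Same-numbered replicates of different lines did not deviate together in every pair (mean r = 0.0436 over 18 pairs, from -0.295 to 0.470, against a mean of -0.0235 over 36 pairs with different numbers), and 7 of 12 samples correlated best with one of their own number. A block on the number left 2 genes called higher in the WT line, 3 in the KK line and 2 in the R109K line, and lost LSM5 in WT (adjusted p = 0.0129). The shares called over all genes are not given here for that fit. The labels give no meaning to the number. The median standard error of the 51 genes was 0.15 on the log2 scale in each comparison, which limits what smaller changes can be called.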
